A study of Mus musculus with 8 samples.

Results

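Kit, Ly6a, Slamf1 and Cd48 encode the surface antigens CD117, Sca-1, CD150 and CD48, and Procr encodes the endothelial protein C receptor, EPCR. Antibodies to the first 4 proteins were used to sort the cells measured here, and EPCR was not among the stated antibodies. The 5 genes were taken by symbol from the 50686 gene IDs of the tables, and all 5 were matched and passed the filter on low counts, with 16066 genes tested in all. The cells were hematopoietic stem cells (HSCs) from the long bones of C57BL/6J mice, and no label names a transgene, an agent or an age for any of the 4 groups. Small and Large HSCs came from gates on the smallest and the largest 10% of the preparation, Medium HSCs from a gate around the mean size, plus or minus 10%, and All HSCs are those the labels give without a size fraction. Each group had 2 libraries, numbered 1 and 2, each made from 10000 cells in G0/1 with a low-input cDNA kit. The labels do not say how many animals were pooled, whether the 2 libraries of a group came from separate animals, or what the number marks. They also do not give the sort gates on the 4 antigens. The comparisons address how transcripts of the sorted antigens differ with cell size among cells sorted with the same antibodies. That the groups shared 1 surface gate is assumed.

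HSCs maintain all blood lineages and are conventionally isolated as lineage-negative marrow cells with high CD117 and Sca-1, present CD150 and absent CD48. CD117 is the receptor tyrosine kinase for stem cell factor, Sca-1 is a lipid-anchored protein of the Ly6 family, and CD150 and CD48 are receptors of the SLAM family. EPCR binds protein C on endothelium and is used as a further surface marker of HSCs. The antibodies bind protein, whereas the libraries count transcripts, so a transcript can vary between cells that passed the same antibody gate.

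Coordinates are on GRCm38, from the GENCODE M21 annotation, and give the whole gene with its exons and introns; all 5 are protein-coding. Kit (ENSMUSG00000005672) lies at chr5:75574916-75656722 on the plus strand, and Procr (ENSMUSG00000027611) at chr2:155751117-155755471 on the plus strand. Cd48 (ENSMUSG00000015355) at chr1:171682009-171705258 and Slamf1 (ENSMUSG00000015316) at chr1:171767127-171801184 are plus-strand neighbours within the SLAM gene cluster, 61.9 kb apart. Ly6a (ENSMUSG00000075602) lies at chr15:74994877-74998031 on the minus strand, inside the Ly6 gene cluster. Its relatives there, such as Ly6c1 and Ly6c2, share sequence with each other and in part with Ly6a, so that reads could be split between them by estimation.

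Promoters are shown because the 5 genes took different orders over the groups, and so that the letters upstream of the neighbours Slamf1 and Cd48 can be set side by side. RefSeq promoter entries on GRCm38.p6 were matched for 4 of the 5 genes, all but Ly6a. Each line gives the plus strand, 5′ to 3′, ending before the first annotated base of the gene in GENCODE or, for Cd48, before the RefSeq start, which lies a short way upstream of the GENCODE start. Capitals mark, on either strand, the short motif GATAA of GATA factors, the motif GGAAG of ETS factors and the motif TGTGGT of RUNX factors, and none of the marked matches overlap.
Kit, chr5:75574737-75574915: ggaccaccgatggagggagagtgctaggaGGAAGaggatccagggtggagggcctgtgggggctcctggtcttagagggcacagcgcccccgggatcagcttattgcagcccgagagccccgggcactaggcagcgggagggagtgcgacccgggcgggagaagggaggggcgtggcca
Slamf1, chr1:171766882-171767126: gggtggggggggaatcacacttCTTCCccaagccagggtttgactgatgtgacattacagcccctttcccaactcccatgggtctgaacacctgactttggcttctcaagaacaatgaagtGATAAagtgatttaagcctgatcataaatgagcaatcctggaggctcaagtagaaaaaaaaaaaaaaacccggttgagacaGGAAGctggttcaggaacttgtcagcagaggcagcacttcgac
Cd48, chr1:171681742-171681991: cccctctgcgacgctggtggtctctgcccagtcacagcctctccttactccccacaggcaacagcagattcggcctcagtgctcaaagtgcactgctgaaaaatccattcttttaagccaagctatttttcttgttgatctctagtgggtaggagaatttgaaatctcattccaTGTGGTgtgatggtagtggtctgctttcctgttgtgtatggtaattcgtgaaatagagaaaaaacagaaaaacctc
Procr, chr2:155750967-155751116: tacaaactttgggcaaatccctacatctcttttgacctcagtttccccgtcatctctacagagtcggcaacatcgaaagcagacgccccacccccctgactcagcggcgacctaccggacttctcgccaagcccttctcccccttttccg

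The Kit window held 1 GGAAG, a motif that 50.3% of 27025 promoters held in a window of the same length. The Slamf1 window held 1 GATAA, found in 22.8% of promoters at its length, and 2 GGAAG, a motif found at least once in 62.6%. The Cd48 window held 1 TGTGGT, found in 14.2%, and the Procr window held none of the 3. A match is a string of letters and was not tested for binding.

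Depth was similar throughout, between 13698362 (Small 2) and 16838448 (All 2) total counts. Transcript levels of the 5 genes differed widely within the same sorted cells. On the length-scaled TPM scale (transcript abundance scaled to a fixed library total), Ly6a averaged 320 over the 8 libraries, Kit 247, Cd48 104, Procr 76.7 and Slamf1 7.08. Slamf1 TPM was the lowest of the 5 in 8 of 8 libraries, and its mean lay above 40.6% of tested genes, against 96.7% for Ly6a. Cd48 RNA, whose protein is the conventional negative gate, was thus above Slamf1 RNA in each library. The ratio of Cd48 to Slamf1 TPM was 29.8 and 17.0 for Small HSCs, 8.43 and 17.8 for Medium HSCs, 50.3 and 23.0 for Large HSCs, and 10.1 and 1.25 for All HSCs. That ratio was lowest in All 2 and highest in Large 1. Kit, Ly6a and Slamf1 transcripts were present in all libraries, and Cd48 transcript was present too. Presence alone therefore does not check the labelled cell type against its sort antigens.

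**Figure D1:**
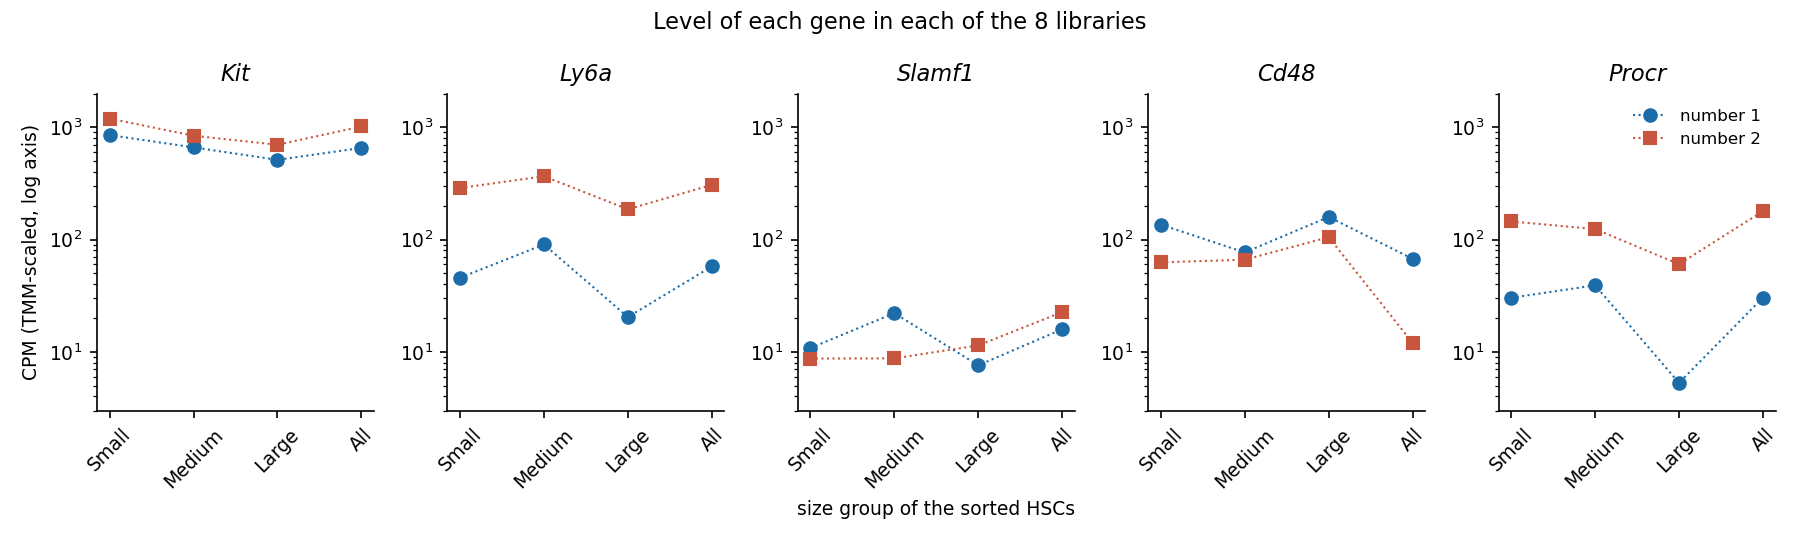
Level of each gene in each library, as CPM (TMM-scaled counts, log axis), with Small, Medium, Large and All on the x axis and the numbers 1 and 2 joined by separate lines. For Ly6a and Procr all 4 libraries numbered 2 sit above all 4 numbered 1, while the line for each number dips at Large.

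The order of the size groups was read within each number, as CPM, which are counts scaled to a library total of 1000000 after TMM normalization, and paired values are given for number 1 first. Large was the lowest of the 4 groups in both numbers for 3 of the 5 genes, Kit, Ly6a and Procr, an arrangement that 12.9% of tested genes showed. Cd48 had the reverse arrangement, with Large highest in both numbers (15.2% of genes) and All lowest in both (6.49%). Ly6a had the same full order in both numbers, Medium, All, Small and Large from high to low, as did 8.45% of genes. Slamf1 had no group at the same end in both numbers. CPM are relative to the other transcripts of a library, and in such bulk libraries fewer cells of a type and less RNA per cell cannot be told apart.

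Kit transcript was highest in Small HSCs and lowest in Large HSCs within each number. Kit CPM was 852 and 1196 for Small HSCs, 662 and 841 for Medium HSCs, 513 and 699 for Large HSCs, and 655 and 1017 for All HSCs. The 2 Large libraries were below the 2 Small ones, as for 14.7% of genes, and so were the 2 Medium libraries, by a narrow margin for Medium 2 against Small 1 (14.3% of genes). The ranges of Large and Medium overlapped, as did those of All with every size group. Small was the highest group in both numbers, as for 9.69% of genes. The Large to Small log2 difference was -0.73 in number 1 and -0.77 in number 2, so that the 2 numbers gave close values despite different levels. In the edgeR quasi-likelihood test with group alone, Kit had a log2 fold change of -0.76 (SE 0.31, 95% interval -1.49 to -0.03) and an adjusted p of 0.975. That test called 0 of 16066 genes (0%), while 506 had an unadjusted p under 0.05 (3.15%), Kit with 0.0442 among them. The share with an unadjusted p under 0.05 was 1.87% in Large against Medium, 4.33% in Medium against Small, 1.63% in Medium against All and 2.1% in the test of any difference, and edgeR called 0 genes in each of these too. DESeq2 with group alone called 11 genes and limma-trend 1, and none was among the 5. With the number as a block, edgeR gave Kit -0.75 (SE 0.11) and an adjusted p of 0.0612. DESeq2 with the block, an alternative chosen after seeing the data, gave -0.77 and an adjusted p of 6e-07 and called 11.3% of 11942 genes. Limma-trend with the block, likewise chosen afterwards, gave -0.93 on the log2(TPM + 1) scale and an adjusted p of 0.0382. Limma-trend called 0.564% of genes there. DESeq2 with the block also called Kit lower in Medium than in Small (-0.45, adjusted p = 0.0186), where it called 4.19% of genes, and lower in Large than in All (-0.44, adjusted p = 0.00998), where it called 12.6%. The call for Kit therefore differed between tools. In the DESeq2 test of any difference with the block, which called 16.7% of genes, Kit, Ly6a and Procr passed with adjusted p of 5.7e-06, 1.4e-05 and 3.5e-05, and with edgeR and the block, which called 0.0187%, none of the 5 passed.

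Genes that act with Kit were read from a list of 28, all tested, and none was called between groups by edgeR. DESeq2 with the block called 4 lower and 0 higher in Large than in Small, beside 5.54% and 5.79% of all genes. From Large to Small, 18 of the 28 were lower in Large in both numbers and 2 were higher, against 30.9% and 32.9% of all genes, and the median fitted log2 difference was -0.30 against 0.00 over all genes. Among the most abundant were Ptpn6, a phosphatase that limits Kit signals, and Akt1, a survival kinase. Ptpn6 CPM was 466 and 585 for Small HSCs, 323 and 505 for Medium HSCs, 355 and 482 for Large HSCs, and 400 and 424 for All HSCs. Akt1 had Large to Small log2 differences of -0.30 and -0.20. Spry1, an inhibitor of the Ras pathway, had 49.5 and 57.1 CPM in Small against 28.7 and 31.0 in Large. Both Large libraries thus lay below both Small libraries, as for 14.7% of genes. Cblb, a ubiquitin ligase that attenuates receptor signalling, was also lower in Large, with log2 differences of -1.05 and -0.59. Sos1, the exchange factor that activates Ras, went the other way, with 0.98 and 0.45. Kitl, the ligand stem cell factor, ranged from 0 to 0.87 TPM.

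Among 7 transcription factors and cofactors known to act at Kit, 4 were lower in Large than in Small in both numbers and 0 were higher. The shares of all genes were 30.9% and 32.9%. DESeq2 with the block called 2 of the 7 lower and 0 higher there, beside 5.54% and 5.79% of all genes. Gata2, a GATA factor of HSCs, had 248 and 179 CPM for Small HSCs, 158 and 131 for Medium HSCs, 82.8 and 109 for Large HSCs, and 137 and 166 for All HSCs. Large was thus the lowest group in both numbers for Gata2, with log2 differences from Small of -1.58 and -0.71 and a block-fitted value of -1.15 (SE 0.22, adjusted p = 0.0737 by edgeR). Lmo2, a cofactor that bridges GATA and SCL complexes, had differences of -0.33 and -0.37, and its partner Ldb1 had -0.29 and -0.41. Myb, which is required for definitive hematopoiesis, had 0.15 and -0.08.

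Mast cells and basophil precursors also carry CD117, so the summed TPM of 13 mast cell, basophil and eosinophil genes is given beside Kit. It was 2498 and 435 for Small HSCs, 900 and 175 for Medium HSCs, 826 and 1514 for Large HSCs, and 764 and 54.0 for All HSCs. In number 1 Small was highest and Medium second for both the sum and Kit, and only Large and All changed places. In number 2 Large was highest for the sum and lowest for Kit, and All was lowest for the sum and second for Kit. The mast cell proteases Mcpt4, Cma1, Tpsb2 and Tpsab1 had a count of 0 in all 8 libraries, where 3 counts would be 0.178 to 0.219 CPM. The sums came wholly from the other genes of the list, the 9 that were tested, and the counts of 0 say nothing about those. The part of these genes in the Kit result was not tested.

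Ly6a transcript was lowest in Large and highest in Medium within each number, but the number moved it further than size did. Ly6a CPM was 45.7 and 288 for Small HSCs, 90.4 and 366 for Medium HSCs, 20.4 and 186 for Large HSCs, and 57.6 and 307 for All HSCs. The 4 libraries numbered 2 all lay above the 4 numbered 1, as for 11.6% of genes, so that all group ranges overlapped. Within number 1 the log2 difference of Large was -1.16 from Small, -2.14 from Medium and -1.49 from All. Within number 2 the same differences were -0.63, -0.97 and -0.72. Both numbers gave the same sign in each of these comparisons, and the size in number 1 was larger in all 3. The test with group alone gave Large against Small as -0.69 (SE 1.33) and an adjusted p of 0.975, and its sign turned without Small 2 (1.18) or Large 1 (0.16), which leaves unlike numbers to compare. With the block, edgeR gave -0.85 (SE 0.24, adjusted p = 0.132) against Small, -1.53 (SE 0.25, adjusted p = 0.138) against Medium and -1.06 (SE 0.25, adjusted p = 0.0956) against All. DESeq2 with the block called all 3 of these, with adjusted p of 0.0122, 2e-06 and 0.00165, where it called 11.3%, 7.01% and 12.6% of genes.

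Other genes of the Ly6 family did not share this arrangement. Of 9 tested, 0 were lower in Large than in Small in both numbers and 4 were higher, against 30.9% and 32.9% of all genes. None was called by edgeR, or by DESeq2 with the block in Large against Small. DESeq2 with the block called 1 higher in Large than in All, beside 7.37% of all genes. Ly6c2, a monocyte and granulocyte antigen, had 1038 and 396 CPM for Small HSCs, 702 and 394 for Medium HSCs, 1684 and 878 for Large HSCs, and 818 and 71.8 for All HSCs. Large was the highest group in both numbers for Ly6c2, as for Cd48. Ly6e, a broadly expressed member, had log2 differences of 0.01 and 0.16 from Large to Small. Ly6g, a granulocyte antigen, was highest in All 1, at 95.2 CPM, and between 7.64 and 29.7 CPM in the other libraries.

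Ly6a is also an interferon-inducible gene, and 32 interferon response genes were read beside it. Of these, 22 were lower in Large than in Small in both numbers and 5 were higher, against 30.9% and 32.9% of all genes. Large was the lowest of the 4 groups in both numbers for 19 of the 32, against 12.9% of all genes. None was called between groups by edgeR with group alone or with the block, and DESeq2 with the block called 8 lower and 0 higher in Large than in Small, beside 5.54% and 5.79% of all genes. Their median fitted log2 difference was -0.50. Ifitm1, a membrane protein that restricts virus entry, had 233 and 620 CPM for Small HSCs, 305 and 901 for Medium HSCs, 70.3 and 434 for Large HSCs, and 228 and 859 for All HSCs. Medium was the highest group and Large the lowest in both numbers for Ifitm1, as for Ly6a. Stat2, which carries the interferon signal to the nucleus, had 46.7 and 68.4 CPM in Small against 19.7 and 39.9 in Large. These did not overlap, as for 14.7% of genes with Large below Small. Psmb8, an immunoproteasome subunit, went the other way, with log2 differences of 0.14 and 0.36. The summed TPM of the list was 3017 and 6235 for Small HSCs, 3677 and 7151 for Medium HSCs, 1962 and 4652 for Large HSCs, and 3178 and 7318 for All HSCs, with each number 2 value above each number 1 value. The part of these genes in the Ly6a result was not tested.

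Procr had the widest range of the 5 genes, 44.0-fold in TPM between its highest and lowest library. Procr CPM was 30.3 and 145 for Small HSCs, 39.1 and 124 for Medium HSCs, 5.29 and 60.4 for Large HSCs, and 30.4 and 179 for All HSCs. Large was lowest in both numbers, Large 1 was by far the lowest library, and all 4 libraries numbered 2 lay above all 4 numbered 1. The Large 1 value rested on 74 counts, with an exact Poisson 95% interval of 4.15 to 6.64 CPM that covers counting error only. Small 1 and All 1 could not be told apart at this depth, since the interval for Small 1 was 27.7 to 33.2 CPM and that for All 1 was 27.6 to 33.4. Large against Small differed by -2.49 log2 in number 1 and -1.27 in number 2, and was therefore over 1 lower in both, as for 2.55% of genes. Against Medium the differences were -2.86 and -1.04, with 3.88% of genes over 1 lower in both. Against All they were -2.49 and -1.57, with 4.49% of genes. Of the 5 genes, Procr alone was over 1 lower in both numbers in these 3 comparisons. The test with group alone gave Large against Small as -1.42 (SE 1.33, adjusted p = 0.975), and 0.12 without Small 2. With the block edgeR gave -1.75 (SE 0.39, adjusted p = 0.0976), a 3.36-fold lower level in Large, and against All -1.90 (SE 0.39, adjusted p = 0.0914). DESeq2 with the block called Procr lower in Large against Small, Medium and All, with adjusted p of 7e-05, 3.8e-05 and 2e-05. It called 11.3%, 7.01% and 12.6% of genes there, with 5.54%, 3.05% and 5.23% called lower. Medium and Small were not separated for Procr, with differences of 0.36 and -0.23.

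**Figure D2:**
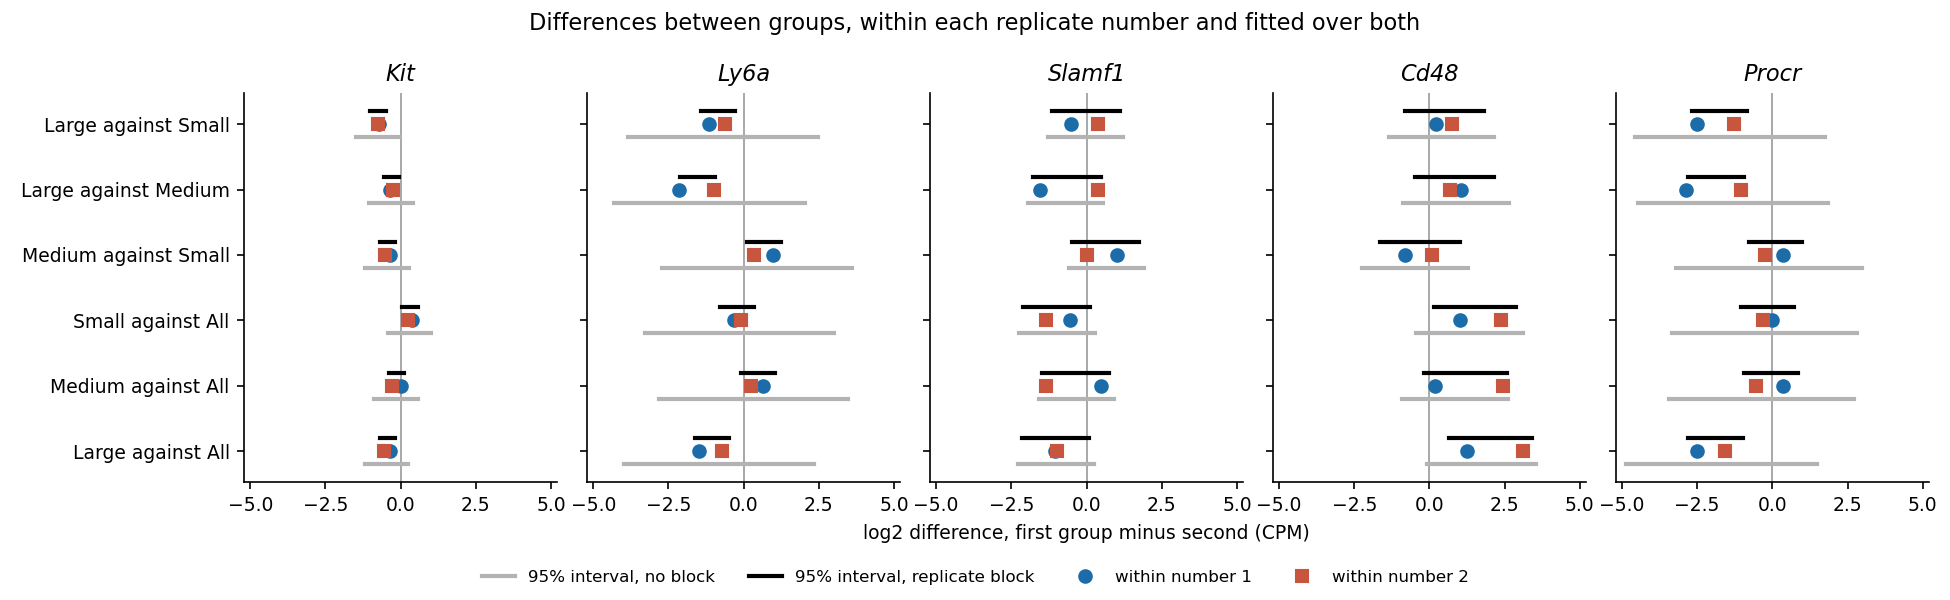
Log2 difference in CPM, first group minus second, for each gene and pair of groups: points give the value within number 1 and within number 2, and bars the 95% intervals of the edgeR fits without (grey) and with (black) the number as a block. In the 3 comparisons of Large, Kit, Ly6a and Procr lie below 0 in both numbers and Cd48 above 0, while the grey bars of Ly6a and Procr span 0 throughout.

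The protein C pathway was read from 18 genes, of which 14 were tested and none was called between groups by edgeR. DESeq2 with the block called 3 lower and 0 higher in Large than in Small, beside 5.54% and 5.79% of all genes. From Large to Small, 8 were lower in Large in both numbers and 2 were higher, against 30.9% and 32.9% of all genes. The median fitted log2 difference of the 14 was -0.42. S1pr1, a sphingosine phosphate receptor linked to EPCR signalling and to cell egress, had 41.9 and 95.7 CPM for Small HSCs, 36.0 and 83.6 for Medium HSCs, 12.9 and 45.9 for Large HSCs, and 32.3 and 94.4 for All HSCs. Large was lowest in both numbers for S1pr1, with log2 differences from Small of -1.69 and -1.06, and the block-fitted value was -1.36 (SE 0.21, adjusted p = 0.0631 by edgeR). F2r, the thrombin receptor PAR1 that protein C also cleaves, was lower in Large too, with -1.39 and -0.49, but unlike Procr it was lower in number 2 than in number 1 in each group. Tfpi, an inhibitor of tissue factor, had 0.50 and -0.12. Proc, which encodes protein C itself, was at 0 TPM in all libraries. EPCR is named for endothelium, and the summed TPM of 20 endothelial and stromal genes was 220 and 380 for Small HSCs, 297 and 478 for Medium HSCs, 144 and 315 for Large HSCs, and 168 and 416 for All HSCs. Cdh5 and Kdr are named here as endothelial markers and not by the rule that picked the other genes. Cdh5 was at most 1.16 TPM and at 0 in Small 2 and All 2, and Kdr was 0.28 to 2.05 TPM. Most of the sum thus came from other genes of the list. The list also holds further endothelial genes, such as Pecam1 and Egfl7, whose levels are not reported here. Of 18 tested, 14 were lower in Large than in Medium in both numbers and 0 higher, against 33% and 32.9% of all genes. Against Small, 6 were lower in Large in both numbers and 2 higher. The part of these genes in the Procr result was not tested.

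Cd48 transcript was highest in Large and lowest in All within each number, and All 2 stood far below the rest. Cd48 CPM was 136 and 62.7 for Small HSCs, 76.8 and 66.1 for Medium HSCs, 159 and 105 for Large HSCs, and 67.4 and 12.0 for All HSCs. Both Large libraries lay above both Medium libraries, as for 18.3% of genes, and above both All libraries, as for 15.8%, but the Large and Small ranges overlapped, and without Small 2 the fitted Large to Small value was -0.04 in place of 0.41. Large against Small differed by 0.23 in number 1 and 0.75 in number 2, and Large against All by 1.24 and 3.11. The test with group alone gave Large against All as 1.74 (SE 0.76, 95% interval -0.07 to 3.54), with an adjusted p of 0.885. In that comparison edgeR called 0 of 16066 genes (0%), 504 had an unadjusted p under 0.05 (3.14%), and DESeq2 with group alone called 5 and limma-trend 1. With the block, edgeR gave 2.02 (SE 0.55, adjusted p = 0.142), while DESeq2 gave 2.05 with an adjusted p of 0.0226. DESeq2 with the block called 12.6% of genes in that comparison, 7.37% as higher in Large. With group alone the value was 0.97 without All 2 and 3.48 without All 1, so that its size depended on both All libraries.

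Granulocyte and monocyte genes are given beside Cd48, since CD48 is carried by most mature white cells and by progenitors. The summed TPM of 22 such genes was 75902 and 25275 for Small HSCs, 48136 and 16230 for Medium HSCs, 62732 and 37611 for Large HSCs, and 112494 and 10151 for All HSCs. The sum was lowest in All 2, as for Cd48, but highest in All 1, where Cd48 was low. Of the 22 genes, 9 were higher in Large than in All in both numbers and 1 was lower, against 31.2% and 32.6% of all genes. EdgeR called none, and DESeq2 with the block called 4 higher and 0 lower, beside 7.37% and 5.23% of all genes. In Large against Medium, 16 of the 22 were higher in both numbers and 0 lower, against 32.9% and 33% of all genes. Cd48 was higher in Large there too, by 1.05 and 0.67. In Medium against Small, 0 were higher and 16 lower, against 30.1% and 29.3%, where Cd48 differed by -0.82 and 0.08. In Large against Small, 6 were higher and 2 lower. Within the list, Ctsg, a protease of early granulocyte granules, had 1057 and 327 CPM for Small HSCs, 693 and 306 for Medium HSCs, 2194 and 747 for Large HSCs, and 740 and 16.7 for All HSCs. Large was thus highest and All 2 lowest for Ctsg, as for Cd48. The late granule gene Ngp had 8306 and 2562 CPM for Small HSCs, 4373 and 1203 for Medium HSCs, 5883 and 3875 for Large HSCs, and 17007 and 990 for All HSCs, and did not share the place of All 1. The part of these genes in the Cd48 result was not tested.

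**Figure D3:**
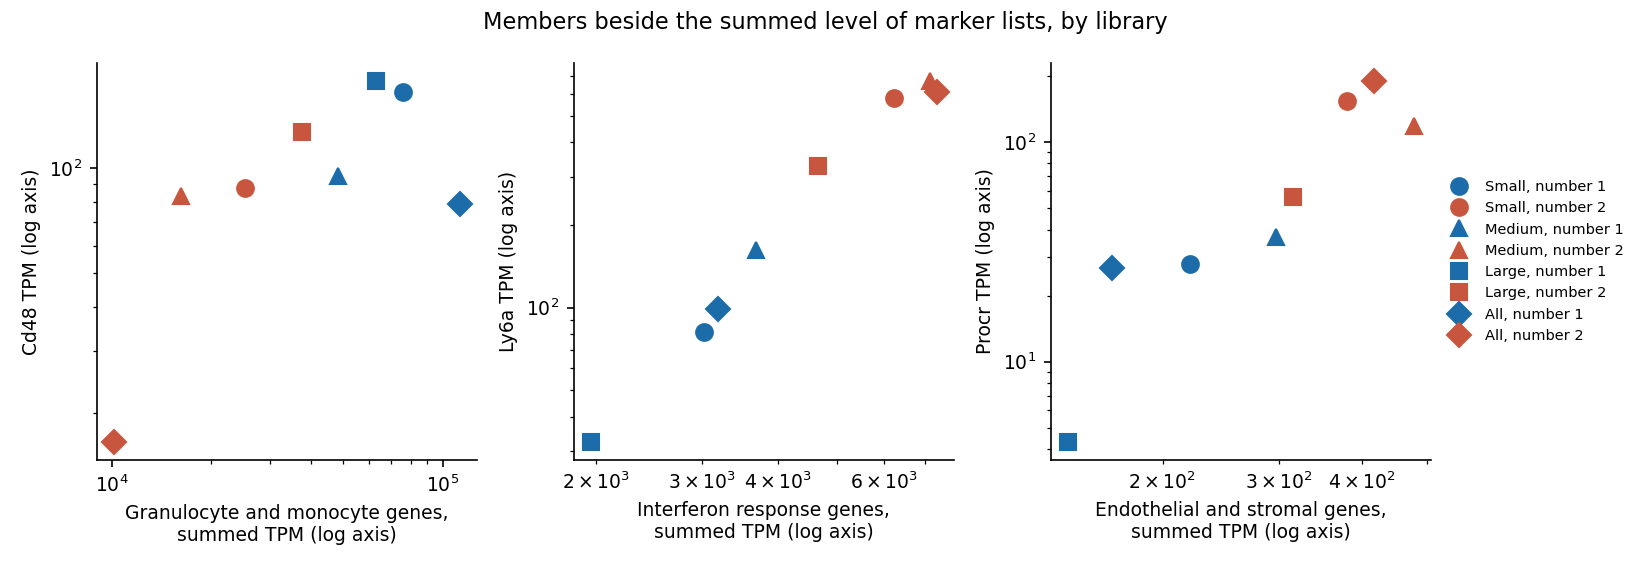
Cd48, Ly6a and Procr TPM against the summed TPM of granulocyte and monocyte, interferon response, and endothelial and stromal genes (log axes, 1 point per library, shape for size group and colour for number). All 2 is lowest for both Cd48 and the granulocyte sum, while All 1 is highest for that sum with a Cd48 level below those of Small 1, Medium 1 and Large 1.

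Slamf1 showed no arrangement by size that both numbers shared. Slamf1 CPM was 10.8 and 8.71 for Small HSCs, 22.1 and 8.74 for Medium HSCs, 7.58 and 11.4 for Large HSCs, and 15.9 and 22.6 for All HSCs. Medium 1 and All 2 were the high libraries, and both All libraries lay above both Small and both Large libraries, as seen for 14.8% and 16.2% of genes. Large against Small differed by -0.51 in number 1 and 0.39 in number 2. The fitted Large to Small log2 difference was -0.04 (SE 0.53, 95% interval -1.29 to 1.21), an interval that allows differences of over 1 in either direction, and it was 0.13 without Small 1 and 0.23 without Large 1. Against All, Small was -0.98 (SE 0.53) and Large -1.02 (SE 0.53), with adjusted p of 1 and 0.885 in the edgeR test. In Small against All that test called 0 genes and 637 had an unadjusted p under 0.05 (3.96%), while DESeq2 with group alone called 10 and limma-trend 0. Counts were low, from 106 in Large 1 to 402 in All 2, and the Poisson interval for Small 2, 7.23 to 10.4 CPM, overlapped that for Medium 2, 7.37 to 10.3.

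The list of other SLAM family genes also held Cd2 and the adaptor genes Sh2d1a, Sh2d1b1 and Sh2d1b2. It summed to between 47.8 TPM in Large 1 and 112 in All 2. Of 11 listed, 9 were tested, and none was called between groups by edgeR. In both numbers 3 of the 9 were lower and 3 higher in Large than in Small, against 30.9% and 32.9% of all genes. DESeq2 with the block called 1 of the 9 lower in Large than in Medium and 1 lower in Large than in All. The shares of all genes were 3.05% and 5.23%. The median fitted log2 difference of the 9 from Large to Small was 0.13 with group alone and 0.96 with the block. The numbers differed in sign, with a median of -0.28 within number 1 and 2.27 within number 2. In Small 2 and in All 2, 3 of the 11 listed genes had a count of 0. Cd84, a SLAM receptor of platelets and progenitors, had 40.8 and 63.7 CPM for Small HSCs, 54.3 and 55.7 for Medium HSCs, 33.2 and 39.5 for Large HSCs, and 68.1 and 97.3 for All HSCs. Cd84 was highest in All within each number, and its Large to All differences were -1.03 and -1.30. Ly9, another family member, had -0.24 and -0.06. Cd244a, which encodes the receptor that binds CD48, ranged from 12.0 CPM in All 2 to 35.5 in Medium 2 with no order shared by the numbers.

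The number, tested as a term beside group in edgeR, passed the threshold for 3 of the 5 genes, of which Ly6a and Procr alone had no overlap between the numbers. The test called 3947 of 16066 genes (24.6%), with 2002 higher in number 2 (12.5%) and 1945 lower (12.1%). Ly6a was 5.9-fold higher in number 2, with a log2 difference of 2.56 (SE 0.18, adjusted p = 0.00027), and was higher in 4 of 4 groups. Procr was 5.49-fold higher, with 2.46 (SE 0.28, adjusted p = 0.00191), also in 4 of 4 groups. Kit was 1.39-fold higher, with 0.48 (SE 0.08, adjusted p = 0.00412), in 4 of 4 groups. Cd48 had -1.07 (SE 0.38, adjusted p = 0.107) and was lower in number 2 in 4 of 4 groups. Without All 1 the Cd48 value was -0.65 with an adjusted p of 0.0306, and without All 2 it was -0.64 with 0.0335. Slamf1 had -0.13 (SE 0.35, adjusted p = 0.83). Leaving out 1 library lowered the count of genes called to 2007 without Small 1, to 1947 without Small 2, and to 3157 or fewer in each case. The interferon list stood at 25 of 32 higher and 1 lower in number 2, and the granulocyte list at 0 higher and 3 lower, with a median of -2.01. In DESeq2 with the block, 18 of the 22 granulocyte genes were lower, beside 15.7% of all genes. The labels do not say what the number marks, so its sources cannot be told apart.

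**Figure D4:**
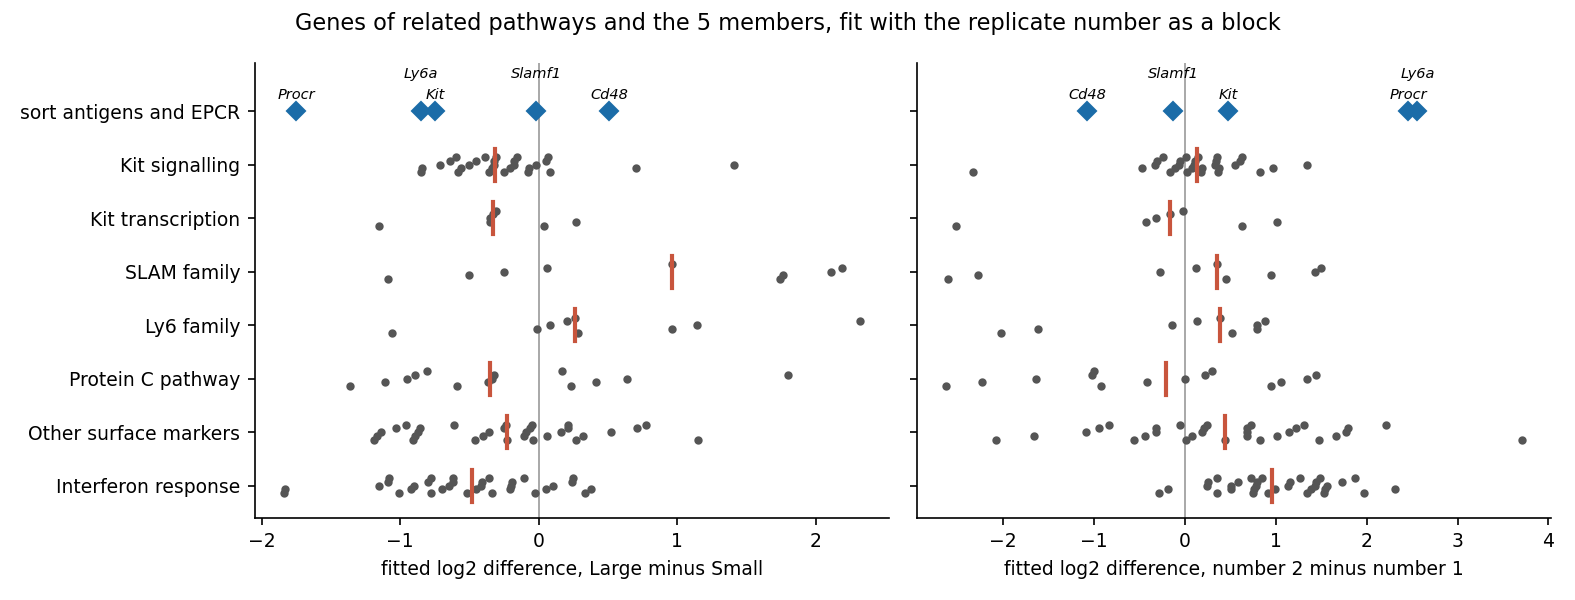
Fitted log2 differences of the 5 genes (diamonds) and of the tested genes of 7 lists (dots, with a bar at each median), from edgeR with the number as a block: Large minus Small on the left, number 2 minus number 1 on the right. Interferon response genes centre below 0 on the left (median -0.49) and above 0 on the right (0.95), and Ly6a and Procr lie far right on the right-hand side.

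Lists of other cells that a marrow sort could hold had no gene called between groups by edgeR. In Large against Small, DESeq2 with the block called 2 macrophage and dendritic genes lower, beside 5.54% of all genes. It called 0 of the lineage depletion, erythroid, T and NK cell, megakaryocyte and platelet, and B cell genes in that comparison. There it also called 2 endothelial and stromal genes lower and 1 granulocyte and monocyte gene higher. In Large against All it called 2 lineage depletion genes higher and 1 lower, and 3 erythroid genes higher and 1 lower. Endothelial and stromal genes had 1 higher and 2 lower, and T and NK cell and macrophage and dendritic genes 1 higher each. Of all genes, 7.37% were called higher there and 5.23% lower. Lineage depletion antigens, the targets of the depletion step, summed to 2067 and 1008 TPM for Small HSCs and 1436 and 865 for Medium HSCs. The sums were 2910 and 1735 for Large HSCs, and 1747 and 326 for All HSCs. Large was thus highest in both numbers, as for Cd48. By gene, 1 of the 8 was higher in Large than in Small in both numbers and 2 lower. Erythroid genes summed to between 2104 and 4767 TPM, megakaryocyte and platelet genes to between 291 and 1000, and macrophage and dendritic genes to between 181 and 1353. T and NK cell genes summed to between 178 TPM in All 2 and 1861 in Large 1. That sum was highest in Large and lowest in All in both numbers, as for Cd48. By gene, 1 of the 14 tested was higher in Large than in Small in both numbers and 5 lower. B cell genes summed to between 241 TPM in Large 1 and 4616 in Large 2, so that the 2 Large libraries lay at opposite ends. The part of these sums in the levels of the 5 genes was not tested.

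Genes whose levels ran most like each of the 5 were found by Pearson correlation of log2 CPM over the 8 libraries, among 10155 genes. The libraries share 2 numbers and 4 groups, so the values describe likeness only. Kit was most like Abl1, a tyrosine kinase gene, at 0.992, then Dgkz, a diacylglycerol kinase gene, at 0.99 and Dcaf8 at 0.989, and the same 3 genes led after the mean of each number was taken off. Abl1 CPM was 63.9 and 88.0 for Small HSCs, 46.6 and 65.4 for Medium HSCs, 37.0 and 51.2 for Large HSCs, and 44.5 and 74.1 for All HSCs, in the same order of groups as Kit within each number. Ly6a was most like Leprotl1 at 0.994, and Hoxa7, a homeobox gene, and Gimap6, a GTPase gene of lymphocytes and HSCs, both at 0.993. After the number means were taken off, Ly6a was most like Eva1b at 0.993, then Fam110b and Leprotl1 at 0.982.

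Procr was most like Ctsf, a lysosomal protease gene, at 0.998, and H2-T23 and Eya2, both at 0.994. Ctsf CPM was 25.0 and 87.1 for Small HSCs, 29.4 and 72.9 for Medium HSCs, 5.86 and 38.5 for Large HSCs, and 21.9 and 88.0 for All HSCs, with Large lowest in both numbers. With the number means off, Plxna3, a plexin gene, led at 0.998, followed by Ctsf at 0.994 and Socs1, an inhibitor of cytokine signalling, at 0.988. Cd48 was most like F13a1, Prep and Mpo, each at 0.989, and with the number means off like Pkib at 0.996, Ubash3a at 0.994 and Angptl4 at 0.992. Mpo, the myeloperoxidase gene of granulocyte precursors, had 13617 and 3462 CPM for Small HSCs, 5516 and 2404 for Medium HSCs, 16527 and 7201 for Large HSCs, and 5276 and 132 for All HSCs. Mpo shared with Cd48 the highest level in Large and the lowest in All within each number. Slamf1 was most like Flt3l at 0.979, with Arhgap5 at 0.938, and with the number means off like Flt3l at 0.987, Poli at 0.98 and Aldh1a1 at 0.968. Flt3l, which encodes the ligand of the receptor kinase Flt3, was high in Medium 1 and All 2, at 21.6 and 21.7 CPM, the same 2 libraries in which Slamf1 was high.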

How the data were processed

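RNA was measured in 8 libraries of sorted mouse HSCs. STAR 2.5.3a with RSEM 1.3.0, SAMtools 1.3 and the build mm10 are named in the submitters' processing notes, without roles. Annotation release and strand setting are not given in the sources used here. Per gene, the authors deposited estimated counts, which were already whole numbers and not scaled between libraries. The authors also deposited log2(TPM + 1) values, from which TPM were recovered. Of 50686 gene IDs, 50376 matched a symbol in GENCODE M21, and the 310 without a symbol took up to 0.131% of any library. Libraries of mice given PD, rapamycin or vehicle were not analysed here.

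Groups were compared with the quasi-likelihood test of edgeR 4.0.16 in R 4.3.3, using TMM scaling, robust estimation, filterByExpr at a minimum count of 10 and a model of group alone on all 8 libraries (4 residual degrees of freedom). P-values were two-sided, adjusted by Benjamini-Hochberg over 16066 genes, with a threshold of 0.05. They measure only the spread between these libraries, which may be technical. Within-number differences are of log2 CPM with a prior count of 2. The number was added as a block (3 residual degrees of freedom) and as a term of its own. Differences between numbers correlated between groups at 0.358 to 0.439 in all 6 pairs of groups, so the numbers were taken to pair the libraries, from the data and not from the labels. Alternatives were DESeq2 1.42.0, limma-trend 3.58.1 on log2(TPM + 1), another scaling, no filter and leaving out each library. DESeq2 and limma-trend with the block were chosen after seeing the data. The edgeR steps were tested on simulated data.

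The 5 genes and the gene lists were chosen with earlier results of these data known. Of each list, the text draws on the 3 genes with the highest mean TPM and the 3 with the largest Large to Small change at a mean of at least 5 CPM, and for likeness on the 3 highest correlations; a few genes that this rule takes are not reported here. Kitl, Proc, Cdh5, Kdr, Mcpt4, Cma1, Tpsb2 and Tpsab1 are named outside this rule, as the ligands and defining markers. Poisson intervals and the floor of 3 counts reflect counting error alone: the reads were amplified and carry no molecular identifiers, so they are not independent.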

Additional observations from a re-analysis of the deposited data

How the results depend on the processing

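Of 265 values of the 5 genes under alternatives that kept all libraries, 240 kept their direction and side of the threshold, 20 passed the threshold in addition and 5 reversed. With the replicate number as a block, edgeR called 3 genes in the test of any difference among the groups and 0 in each pair. Counts called, for Large against Small, Large against Medium, Medium against Small, Small against All, Medium against All, Large against All and any difference, were 11, 6, 28, 10, 5, 5 and 19 with DESeq2, 55, 58, 73, 69, 48, 121 and 208 with no filter, and 1353, 876, 500, 329, 10, 1574 and 2088 with DESeq2 and the block. Limma-trend called 1 gene each in Large against Small, Large against Medium, Large against All and any difference, and with the block 90, 3, 70 and 2. DESeq2 with the block called Kit in Large against Small (-0.77), Medium against Small (-0.45) and Large against All (-0.44); Ly6a in Large against Small (-0.87), Medium (-1.54) and All (-1.05); Procr in the same 3 (-1.79, -1.90 and -1.92); and Cd48 in Large against All (2.05). It also called any difference for Kit (5.7e-06), Ly6a (1.4e-05) and Procr (3.5e-05). With no filter, edgeR called Procr in Large against Small (-1.44) and All (-1.63), Cd48 in Small (1.35) and Large (1.75) against All, and any difference for Cd48 (0.00104) and Procr (0.00497). Limma-trend with the block called Kit in Large against Small (-0.93). Procr in Medium against Small reversed to 0.11 in both count tools with the block and to 0.00 in limma-trend with and without it, and Slamf1 between numbers to 0.00 in limma-trend with the block. The causes were not tested.

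Leaving out 1 library, with the lone library of a group assumed to vary like the others, reversed 30 of 200 values of the 5 genes and called 0 genes between groups; by construction it sets different numbers against each other. Large against Small ran from -1.0 to -0.49 for Kit, -3.03 to 1.18 for Ly6a, -0.37 to 0.23 for Slamf1, -0.04 to 1.08 for Cd48 and -4.05 to 0.12 for Procr. Large against Medium ran from -3.48 to 0.16 for Ly6a and -1.25 to 0.12 for Slamf1. Medium against Small ran from -0.87 to 2.32 for Ly6a, -0.16 to 1.20 for Slamf1, -0.93 to 0.19 for Cd48 and -1.15 to 1.43 for Procr. Small against All ran from -1.99 to 1.53 for Ly6a and -1.78 to 1.53 for Procr. Medium against All ran from -0.39 to 0.19 for Kit, -0.96 to 1.98 for Ly6a, -1.14 to 0.25 for Slamf1 and -1.37 to 1.42 for Procr. Large against All ran from -3.15 to 0.85 for Ly6a, 0.97 to 3.48 for Cd48 and -4.30 to 0.11 for Procr. The number effect ran from -0.38 to 0.26 for Slamf1, and its count of genes from 1947 to 3157, with 2007 without Small 1. Cd48 passed the threshold between numbers without All 1 (-0.65) and without All 2 (-0.64). The lowest counts of the 5 genes were 74 for Procr and 106 for Slamf1, both in Large 1, and each group had 2 libraries.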

Other observations

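Other surface markers of HSCs and progenitors, read from a list of 31 tested genes that excludes the 5 above, shifted with the number too. In edgeR 11 of the 31 were higher in number 2 and 3 were lower, beside 12.5% and 12.1% of all genes. Flt3, a receptor kinase of multipotent progenitors, had 62.8 and 763 CPM for Small HSCs, 47.8 and 678 for Medium HSCs, 27.8 and 497 for Large HSCs, and 40.9 and 387 for All HSCs. Its number effect was 3.71 log2 (SE 0.15, adjusted p = 3.4e-05), and its 4 libraries numbered 2 lay above the 4 numbered 1. Cd34, a sialomucin of progenitors, had 325 and 1276 CPM for Small HSCs, 314 and 1128 for Medium HSCs, 333 and 908 for Large HSCs, and 350 and 911 for All HSCs. Its levels in number 1 were nearly level across the size groups.

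Within each number, Large was the lowest of the 4 groups for 10 of the 31 genes, beside 12.9% of all genes. DESeq2 with the block called 7 of the 31 lower in Large than in Small and 0 higher. The shares of all genes were 5.54% and 5.79%. Adgrg1, an adhesion receptor gene of HSCs, had 1207 and 2669 CPM for Small HSCs, 975 and 1727 for Medium HSCs, 470 and 1309 for Large HSCs, and 887 and 2374 for All HSCs. Small was highest and Large lowest for Adgrg1 in both numbers, as for Kit, with a block-fitted Large to Small value of -1.19 (SE 0.16, adjusted p = 0.0612 by edgeR). Robo4, a receptor linked to HSC homing, had 8.49 and 61.7 CPM for Small HSCs, 18.1 and 36.4 for Medium HSCs, 4.0 and 26.2 for Large HSCs, and 9.33 and 46.5 for All HSCs. Fgd5, a marker of HSCs, had 9.46 and 43.0 CPM for Small HSCs, 20.3 and 33.3 for Medium HSCs, 4.5 and 18.6 for Large HSCs, and 14.1 and 66.5 for All HSCs. Large was lowest in both numbers for Robo4 and Fgd5 as well, while the highest group differed between the numbers.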
